A study of Homo sapiens with 6 samples.

Results

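The genes described here are 9 genes of the class I pathway of the major histocompatibility complex (MHC): the heavy chain genes HLA-B, HLA-C, HLA-E and HLA-F, the light chain gene B2M, and the peptide loading genes TAP1, TAP2, TAPBP and ERAP1. They were taken by name, and all 9 were found among the 11079 genes of the table and passed the filter that left 10008 genes for testing. RNA was sequenced from cells of the established human bladder cancer line T24 after stable lentiviral transduction and puromycin selection. One group of 3 libraries carried a control short hairpin RNA (shControl, genotype labelled WT) and the other group of 3 a short hairpin RNA against the long noncoding RNA BLACAT3 (shBLACAT3, genotype labelled BLACAT3 knockdown). The labels do not say how many hairpins or clones a group holds or whether its replicates came from separate cultures. The p-values therefore reflect the spread among the 6 libraries alone, and part of that spread may be technical.

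A class I molecule is a heavy chain paired with beta-2-microglobulin (B2M) and a short peptide. Proteasomes cut the peptides in the cytosol, the TAP1-TAP2 transporter carries them into the endoplasmic reticulum, ERAP1 trims them and tapasin (TAPBP) holds the empty molecule at the transporter until a peptide fits. HLA-B and HLA-C present peptides to cytotoxic T cells and are read by receptors of natural killer cells, HLA-E presents signal peptides of other class I chains to the NKG2A receptor, and HLA-F is a nonclassical chain. In many cell types these genes are induced by interferons and by NF-kB, and NLRC5 is a class I transactivator that acts on their promoters.

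Reference promoters are shown first, because they hold elements named in textbooks for class I control. Any link between these elements and the size of the changes was not tested. RefSeq windows (GRCh38.p14) matched 8 of the 9 genes, all but HLA-E, and the 250 bases before the gene start are printed 5′ to 3′ on the strand of the gene. The windows are HLA-B chr6:31357180-31357429 (minus strand); HLA-C chr6:31272093-31272342 (minus strand); HLA-F chr6:29723184-29723433 (plus strand); TAP1 chr6:32853705-32853954 (minus strand). The others are TAP2 chr6:32838740-32838989 (minus strand), TAPBP chr6:33314079-33314328 (minus strand) and B2M chr15:44711267-44711516 (plus strand). Capitals mark every match on either strand to GAAA followed by GAAA after a gap of 2 bases or of 1 base (interferon response element forms, called 2-gap and 1-gap GAAA repeats here), TTCNNNGAA (STAT element form), the NF-kB consensus, TGACG (core of the cyclic AMP response element and X2 box) or CCAAT (core of the Y box), and adjoining matches run together. TAP1 has another window further into the gene, which is not printed, nor are those of ERAP1.
HLA-B: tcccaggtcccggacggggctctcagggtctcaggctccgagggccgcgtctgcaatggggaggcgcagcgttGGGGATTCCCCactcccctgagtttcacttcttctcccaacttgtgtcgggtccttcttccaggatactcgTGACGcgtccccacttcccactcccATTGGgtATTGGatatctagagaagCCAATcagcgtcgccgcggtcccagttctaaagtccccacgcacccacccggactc
HLA-C: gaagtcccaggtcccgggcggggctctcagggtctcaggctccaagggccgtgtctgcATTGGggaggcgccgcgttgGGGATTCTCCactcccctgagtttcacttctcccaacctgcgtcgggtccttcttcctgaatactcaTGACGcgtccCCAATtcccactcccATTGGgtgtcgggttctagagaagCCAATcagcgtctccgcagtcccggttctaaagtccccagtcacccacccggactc
HLA-F: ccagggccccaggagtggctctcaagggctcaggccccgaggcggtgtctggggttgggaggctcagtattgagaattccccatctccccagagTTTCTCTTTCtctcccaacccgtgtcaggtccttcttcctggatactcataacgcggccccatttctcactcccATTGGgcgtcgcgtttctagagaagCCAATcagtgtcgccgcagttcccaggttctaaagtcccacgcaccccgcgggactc
TAP1: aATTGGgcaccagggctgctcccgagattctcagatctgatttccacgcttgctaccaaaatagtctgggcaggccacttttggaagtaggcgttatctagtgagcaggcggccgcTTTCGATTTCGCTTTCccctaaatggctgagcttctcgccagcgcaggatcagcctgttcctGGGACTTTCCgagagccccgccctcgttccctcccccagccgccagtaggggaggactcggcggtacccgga
TAP2: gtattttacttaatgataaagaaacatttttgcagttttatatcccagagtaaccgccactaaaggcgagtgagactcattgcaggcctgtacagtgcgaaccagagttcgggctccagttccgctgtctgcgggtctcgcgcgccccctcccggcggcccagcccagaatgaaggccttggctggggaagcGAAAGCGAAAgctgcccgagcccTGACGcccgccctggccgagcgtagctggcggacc
TAPBP: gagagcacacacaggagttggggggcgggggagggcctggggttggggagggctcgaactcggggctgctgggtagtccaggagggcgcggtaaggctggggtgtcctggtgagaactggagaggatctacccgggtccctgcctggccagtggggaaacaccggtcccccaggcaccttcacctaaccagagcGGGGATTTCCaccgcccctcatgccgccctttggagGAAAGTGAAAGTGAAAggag
B2M: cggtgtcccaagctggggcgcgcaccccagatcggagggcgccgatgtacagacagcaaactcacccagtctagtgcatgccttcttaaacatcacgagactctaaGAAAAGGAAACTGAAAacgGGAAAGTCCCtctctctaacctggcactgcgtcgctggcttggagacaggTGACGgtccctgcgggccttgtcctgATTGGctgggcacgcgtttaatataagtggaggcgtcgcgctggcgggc

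In the windows of both HLA-B and HLA-C an NF-kB match lay upstream of TGACG, and CCAAT matches lay between TGACG and the start. In HLA-B 2 overlapping NF-kB matches began 177 and 176 bases before the start, and TGACG began 106 bases before it. In HLA-C the NF-kB match began at 172 bases and TGACG at 105 bases, and 1 of its 4 CCAAT matches lay before both, at 192 bases. HLA-F held a single 2-gap GAAA repeat at 156 bases and 2 CCAAT matches. Pairs of overlapping 2-gap GAAA repeats lay in TAP1 (134 and 128 bases before the start), in TAPBP (20 and 14 bases) and in B2M (144 and 138 bases), and TAP2 had 1 at 58 bases. Among all 35116 RefSeq windows of this length, 3.02% held a 2-gap GAAA repeat, 2.69% a 1-gap repeat, 6.57% TTCNNNGAA, 9.96% the NF-kB consensus, 21.2% TGACG and 32.0% CCAAT. HLA-B and HLA-C held no GAAA repeat of either form. The search took these exact forms alone, so a window without a match may still hold an interferon response element of another form. A match is a run of letters, not a shown binding site, and the windows hold the reference sequence, not that of T24 cells.

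The comparison asks what the knockdown of BLACAT3 does to gene expression in these cells. Values are FPKM (fragments per kilobase of transcript, scaled to library size), tests were made with limma on log2(FPKM + 1), and a call is a Benjamini-Hochberg adjusted p under 0.05 over all tested genes. The listed values summed to between 211958 and 226953 FPKM per library, and depth is unknown because FPKM holds no counts. The targeted RNA was not analysed here, so the group labels were not checked against it. Of 6 epithelial markers KRT7, KRT8 and KRT18 had values, summing to between 174 and 204 FPKM in shControl and between 117 and 136 in shBLACAT3 libraries. KRT8 and KRT18 fell (limma adjusted p 0.000389 and 0.0222) in shBLACAT3 cells. KRT7 was higher in all 3 shBLACAT3 libraries (28.6 to 35.5 FPKM) than in the shControl libraries (13.6 to 24.2 FPKM), with a log2 fold change of 0.69 (95% interval 0.19 to 1.18), but was not called (limma adjusted p 0.0968). The part of these markers in the results below was not tested. In bulk RNA, fewer cells of a type and less RNA per cell cannot be told apart. Of 9 urothelial markers only PPARG had values, from 3.48 to 4.26 FPKM in shControl and from 4.47 to 5.05 FPKM in shBLACAT3 libraries. PPARG was not called (log2 fold change 0.26, limma adjusted p 0.146). Of 8 leukocyte markers 1, CD68, had values, from 0.686 to 1.22 FPKM in shControl and from 0.0038 to 0.624 in shBLACAT3 libraries, and of 3 endothelial markers 0 did. The other markers had no values and could not be analysed.

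HLA-B, HLA-C, HLA-E, HLA-F and TAP1 fell in shBLACAT3 cells, while B2M, TAP2, TAPBP and ERAP1 were not called. That is 5 of 9 genes lower and 0 higher, against a background of 6.8% of all tested genes lower and 2.57% higher (9.37% called in either direction). The groups did not overlap in 6 of the 9 genes, as in 32.8% of all tested genes. The median log2 fold change was -0.83 over the 9 genes and -0.0025 over all tested genes. The 5 calls held in each of the 15 other settings tried, including each library left out in turn.

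**Figure D1:**
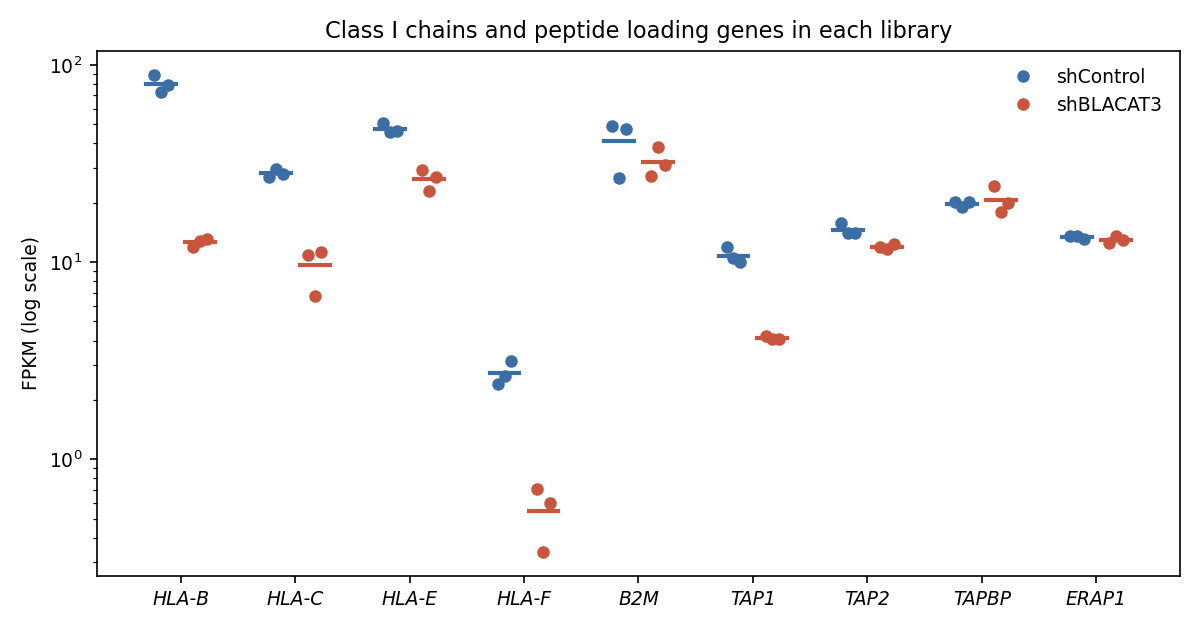
FPKM (log axis) of the 9 genes in each library, with 3 points per group and a bar at the group mean, blue for shControl and red for shBLACAT3. The groups lie apart in HLA-B, HLA-C, HLA-E, HLA-F, TAP1 and TAP2, and overlap in B2M, TAPBP and ERAP1.

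HLA-B stood at 89.2, 72.8 and 78.6 FPKM in shControl replicates 1, 2 and 3 and at 11.9, 12.9 and 13.1 FPKM in shBLACAT3 replicates 1, 2 and 3. The groups did not overlap, and the lowest control library was far above the highest knockdown library. The mean in shBLACAT3 cells was 15.7% of that in shControl cells, and the log2 fold change was -2.57 (SE 0.09, 95% interval -2.78 to -2.37, limma adjusted p 1.61e-05). HLA-B ranked 16 among the 10008 tested genes, counted from the lowest log2 fold change. It was the most abundant of the 9 genes in shControl cells.

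HLA-C stood at 27.2, 29.5 and 27.8 FPKM in shControl libraries and at 10.9, 6.72 and 11.2 FPKM in shBLACAT3 libraries, replicate 2 being the lowest. The groups did not overlap, and the gene fell by 1.49 on the log2 scale (SE 0.18, limma adjusted p 0.00404). HLA-E, the ligand of NKG2A, stood at 50.4, 45.5 and 46.3 FPKM in shControl and at 29.2, 22.9 and 27.1 FPKM in shBLACAT3 libraries. Its fall of 0.83 on the log2 scale (SE 0.10, limma adjusted p 0.00395) was the smallest of the 4 heavy chains, and its shBLACAT3 mean was 55.6% of the control mean. HLA-F stood at 2.41, 2.64 and 3.13 FPKM in shControl and at 0.705, 0.34 and 0.60 FPKM in shBLACAT3 libraries. The groups did not overlap, and HLA-F fell by 1.27 on the log2(FPKM + 1) scale (SE 0.12, limma adjusted p 0.00182). That scale understates the change at such low levels, for which a pseudocount of 0.1 gave -2.16, and the shBLACAT3 mean was 20.1% of the control mean. Class I heavy chain genes are similar and polymorphic, so each value depends on how reads that match several of them were divided before deposit.

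B2M stood at 49.1, 26.5 and 47.2 FPKM in shControl and at 27.5, 38.4 and 31.0 FPKM in shBLACAT3 libraries. Replicate 2 was the lowest of the shControl libraries and replicate 2 the highest of the shBLACAT3 libraries, and the groups overlapped. The log2 fold change was -0.30 (SE 0.25, 95% interval -0.88 to 0.29, limma adjusted p 0.49), so a fall as large as that of HLA-E lies within the interval and one as large as that of HLA-B does not. Without shControl replicate 2 the log2 fold change was -0.57, and without shControl replicate 1 it was -0.14, with B2M called in neither setting.

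TAP1, a subunit of the peptide transporter, stood at 11.9, 10.5 and 10.0 FPKM in shControl and at 4.23, 4.05 and 4.10 FPKM in shBLACAT3 libraries. The groups did not overlap, the shBLACAT3 libraries lay close together, and TAP1 fell by 1.20 on the log2 scale (SE 0.08, limma adjusted p 0.000426). TAP2, the other subunit, stood at 15.72, 14.03 and 14.02 FPKM in shControl and at 11.9, 11.6 and 12.4 FPKM in shBLACAT3 libraries. All 3 shBLACAT3 values were under all 3 control values, as in 18.6% of all tested genes, but TAP2 was not called (log2 fold change -0.26, SE 0.07, 95% interval -0.43 to -0.09, limma adjusted p 0.0714). In the 15 other settings its adjusted p was between 0.0649 and 0.222.

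TAPBP, which encodes tapasin, stood at 20.3, 18.9 and 20.2 FPKM in shControl and at 24.2, 17.9 and 19.9 FPKM in shBLACAT3 libraries. The groups overlapped and the difference had no fixed sign, with a log2 fold change of 0.05 (SE 0.11, 95% interval -0.22 to 0.31, limma adjusted p 0.824) that was -0.07 without shBLACAT3 replicate 1. ERAP1, the trimming aminopeptidase, stood at 13.5, 13.5 and 13.1 FPKM in shControl and at 12.5, 13.5 and 12.9 FPKM in shBLACAT3 libraries. Its values also overlapped (log2 fold change -0.04, SE 0.06, 95% interval -0.19 to 0.10, limma adjusted p 0.701). These intervals allow changes of at most 0.31 up and 0.22 down on the log2 scale for TAPBP and 0.10 up and 0.19 down for ERAP1.

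The order of levels differed between the groups. In shControl cells the mean FPKM ran from HLA-B (80.2) through HLA-E (47.4), B2M (40.9), HLA-C (28.1), TAPBP (19.8), TAP2 (14.6), ERAP1 (13.4) and TAP1 (10.8) to HLA-F (2.73). The ranges of B2M overlapped those of its neighbours HLA-E and HLA-C, and the other neighbours in this order did not overlap. In shBLACAT3 cells it ran from B2M (32.3), HLA-E (26.4), TAPBP (20.7), ERAP1 (12.97), HLA-B (12.6), TAP2 (11.98) and HLA-C (9.62) to TAP1 (4.13) and HLA-F (0.548). There B2M and HLA-E, HLA-E and TAPBP, ERAP1 and HLA-B, and HLA-B and TAP2 overlapped in range.

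Ratios within a library cancel any factor shared by its values. TAP1 over TAP2 was 0.756, 0.746 and 0.714 in shControl and 0.355, 0.349 and 0.331 in shBLACAT3 libraries, and the groups did not overlap. HLA-B over HLA-E was 1.77, 1.60 and 1.70 in shControl and 0.407, 0.562 and 0.483 in shBLACAT3 libraries, so that HLA-B exceeded HLA-E in each control library and was below it in each knockdown library. HLA-E made up 29.9% ± 0.29 (SD, n = 3) of the summed FPKM of HLA-B, HLA-C, HLA-E and HLA-F in shControl and 53.7% ± 1.65 in shBLACAT3 cells, while HLA-B went from 50.5% ± 2.16 to 25.9% ± 3.79. HLA-C made up 17.8% ± 1.77 and 19.3% ± 3.17 (SD, n = 3), and these values overlapped. Summed, these 4 heavy chain genes stood at 169, 150.5 and 156 FPKM in shControl and at 52.7, 42.8 and 52.0 FPKM in shBLACAT3 libraries. The summed heavy chains over B2M gave 3.45, 5.67 and 3.31 in shControl and 1.92, 1.12 and 1.68 in shBLACAT3 libraries.

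**Figure D2:**
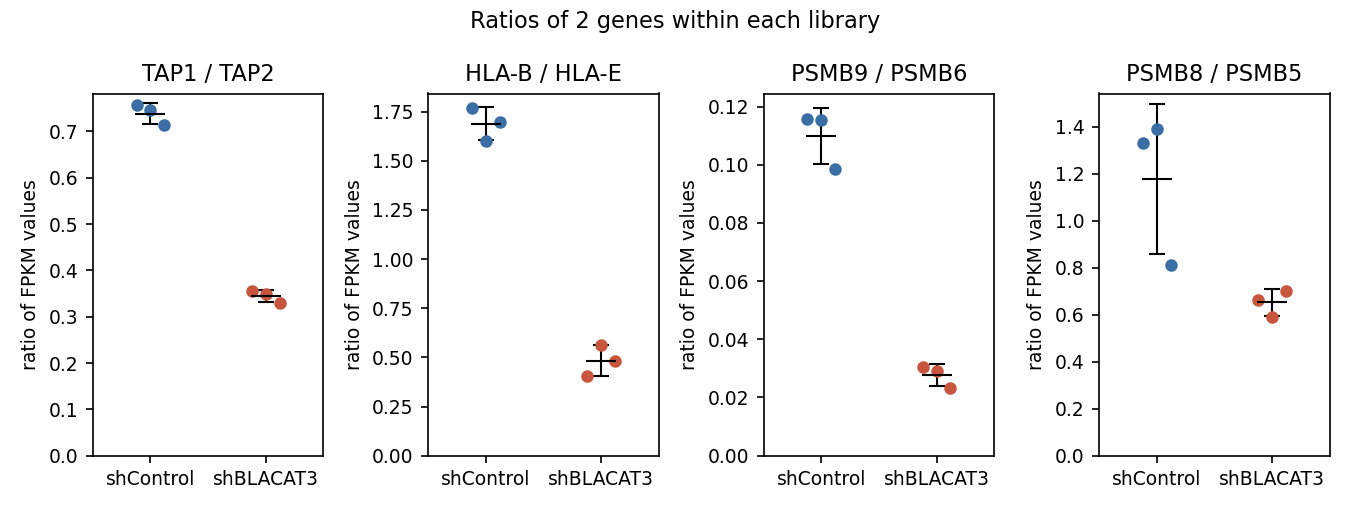
Ratios of FPKM values of 2 genes in each library, with 3 points per group and the mean ± SD in black, for TAP1 over TAP2, HLA-B over HLA-E, PSMB9 over PSMB6 and PSMB8 over PSMB5. All shBLACAT3 points lie under all shControl points in each panel.

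Of 13 such ratios and shares, 12 did not overlap between the groups, nor did the summed level. Each of these had an exact permutation p of 0.10 (two-sided, adjusted p 0.108 over the 14 quantities), the smallest that 3 against 3 allows, so a design of this size cannot reach 0.05. The ratios and shares were picked by hand and are not independent. Many set a called gene against one not called, so their lack of overlap largely follows from the calls. No background share was computed for them. Of the 36 pairs among the 9 genes, 28 differed between the groups without overlap in the log2 difference of their levels (exact permutation p 0.10, adjusted p 0.129). Over all 50075028 pairs of tested genes the share without overlap was 33.0%, and the 36 pairs share genes and are not independent. The 8 pairs that overlapped were those of HLA-C with HLA-F and TAP1, of HLA-F with TAP1, of B2M with HLA-E, TAP2, TAPBP and ERAP1, and of TAPBP with ERAP1. HLA-B moved 1.09 further down than HLA-C on the log2 scale (difference of differences -1.09) and further than HLA-E by a difference of -1.75, without overlap in either pair.

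The other genes of the pathway were read from lists for loading partners, peptide supply, transcription, turnover, class I-like molecules and the class II pathway. Of 55 genes of these lists tested and reported, 11 fell and 0 rose, with a median log2 fold change of -0.17, beside the background of 6.8% lower. These calls rested on the libraries kept: without shControl replicates 1, 2 and 3 the count was 4, 5 and 5, and without shBLACAT3 replicate 1 it was 7.

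Peptide supply held 3 called of 16 tested (18.75% lower, beside 6.8% of all tested genes), all lower and all immunoproteasome subunits. Such subunits replace constitutive catalytic subunits when cells respond to interferon. PSMB9 stood at 6.58, 6.89 and 5.92 FPKM in shControl and at 1.80, 1.64 and 1.60 FPKM in shBLACAT3 libraries (log2 fold change -1.48, SE 0.09, limma adjusted p 0.000206). PSMB8 stood at 36.1, 32.3 and 32.5 FPKM in shControl and at 17.8, 18.1 and 17.8 FPKM in shBLACAT3 libraries (log2 fold change -0.87, SE 0.06, limma adjusted p 0.000581). Neither gene's groups overlapped, and both calls held without any single library. PSMB10 fell less, by 0.36 on the log2 scale from 10.6 ± 0.76 to 8.01 ± 0.42 FPKM (SD, n = 3, limma adjusted p 0.0362), and its call was lost without any 1 of the 6 libraries (adjusted p 0.0579 to 0.136).

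The constitutive counterparts were not called. PSMB5, the partner of PSMB8, stood at 30.2 ± 8.88 and 27.6 ± 2.73 FPKM, PSMB6, the partner of PSMB9, at 58.8 ± 1.72 and 61.3 ± 6.32, and PSMB7, the partner of PSMB10, at 134 ± 5.87 and 133 ± 7.97 (SD, n = 3; log2 fold changes -0.09, 0.05 and -0.01). The sign of these 3 differences turned in at least 1 other setting. PSMB9 over PSMB6 was 0.110 ± 0.0098 in shControl and 0.0276 ± 0.0037 in shBLACAT3 cells (SD, n = 3), and PSMB8 over PSMB5 was 1.18 ± 0.319 and 0.652 ± 0.0565, without overlap in either ratio. The proteasome activator genes PSME1 and PSME2 had log2 fold changes of -0.19 and -0.25 and were not called.

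Of 6 tested loading partners 3 fell, beside 6.8% of all tested genes, and 0 rose. TAPBPL, which encodes the peptide editor TAPBPR, stood at 1.68 ± 0.30 and 0.693 ± 0.12 FPKM (SD, n = 3), with a log2 fold change of -0.66 (SE 0.11, limma adjusted p 0.0147). The lectin chaperone gene CALR, whose protein holds the heavy chain in the loading complex, went from 278 ± 5.60 to 199 ± 20.7 FPKM, and PDIA3, its disulfide isomerase partner, from 119 ± 5.11 to 91.0 ± 3.58 FPKM (SD, n = 3, limma adjusted p 0.0148 and 0.0106). The call of TAPBPL was lost without shControl replicate 1 or 3 or shBLACAT3 replicate 1 (adjusted p 0.0565, 0.0598 and 0.052). That of CALR was lost without shControl replicate 1, 2 or 3 or shBLACAT3 replicate 1 (0.0709, 0.0559, 0.0624 and 0.0505), and that of PDIA3 without shControl replicate 1 or 2 (0.054 and 0.0525). CANX, the membrane-bound lectin chaperone, spread widely within both groups (110 to 210 and 85.6 to 167 FPKM) and was not called.

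**Figure D3:**
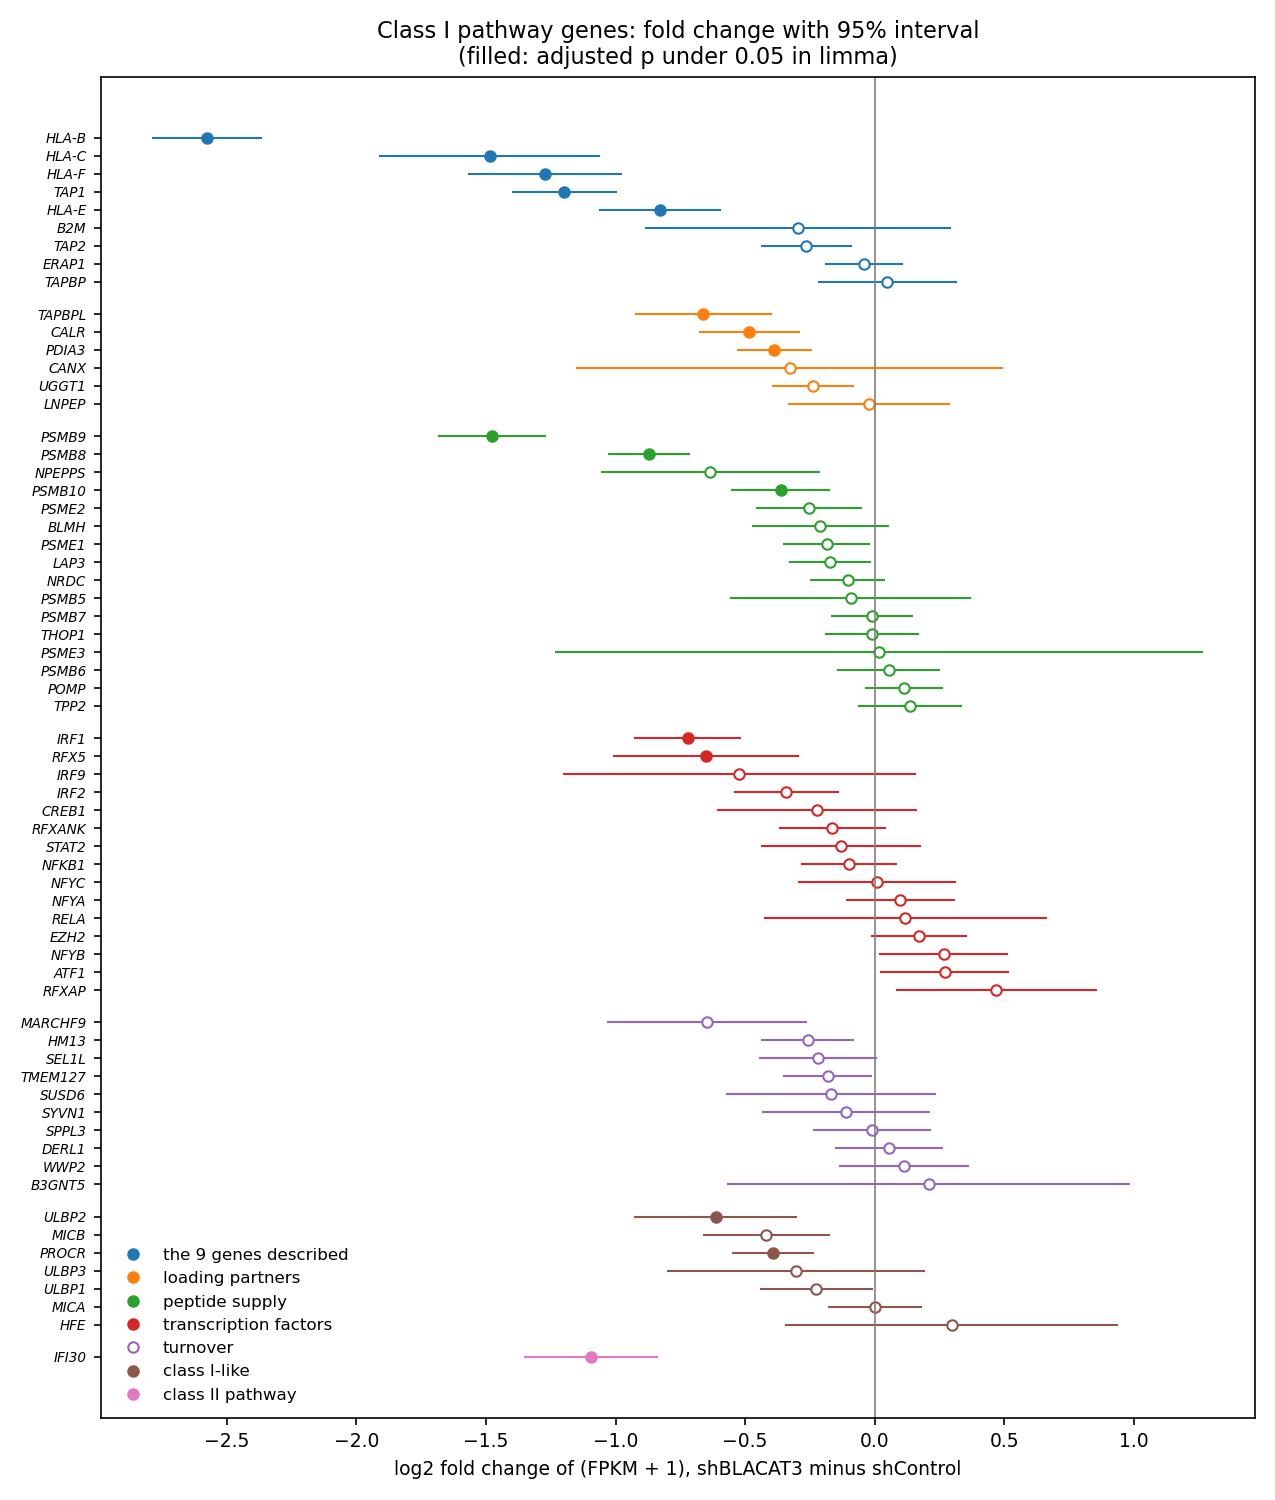
Log2 fold change of FPKM + 1 (shBLACAT3 minus shControl, x axis) with its 95% interval for the 9 genes and the tested genes of the 6 lists, one gene per row, coloured by list, with filled points for a limma adjusted p under 0.05. All filled points lie left of 0, and HLA-B is the furthest left at -2.57.

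Among regulators of class I transcription 2 of 15 tested genes fell (13.3%, beside 6.8% of all tested genes) and 0 rose. IRF1, a transcription factor that binds interferon response elements, went from 5.45 ± 0.47 to 2.91 ± 0.14 FPKM (SD, n = 3, log2 fold change -0.72, SE 0.09, limma adjusted p 0.00395), and its call held without any single library. RFX5, a subunit of the factor that binds the X box, went from 12.7 ± 0.91 to 7.84 ± 1.74 FPKM (SD, n = 3, limma adjusted p 0.0423). The call of RFX5 was lost without shControl replicates 1, 2 and 3 (0.148, 0.122 and 0.0987), without shBLACAT3 replicates 1 and 2 (0.111 and 0.0538), and under median scaling (0.0521) and quantile normalization (0.0531). RFXAP and RFXANK, which encode other subunits of that factor, were not called. Their log2 fold changes were 0.47 (95% interval 0.09 to 0.85, limma adjusted p 0.13) and -0.16 (limma adjusted p 0.278). Of the 15 tested regulators, 8 had a negative log2 fold change.

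NLRC5 lay under the filter, at 0.578, 0.495 and 0.462 FPKM in shControl and at 0.298, 0.258 and 0.276 FPKM in shBLACAT3 libraries. Its groups did not overlap, but the fit without a filter gave an adjusted p of 0.0641. STAT2 and IRF9, which belong to the complex that type I interferon activates, had log2 fold changes of -0.13 and -0.52 (limma adjusted p 0.563 and 0.299) and were not called. The NF-kB subunit genes RELA and NFKB1 had log2 fold changes of 0.12 and -0.10 and were not called either.

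Of 7 tested class I-like genes 2 fell (28.6%, beside 6.8% of all tested genes) and 0 rose. ULBP2, a stress ligand of the NKG2D receptor, went from 3.94 ± 0.50 to 2.24 ± 0.46 FPKM (SD, n = 3, limma adjusted p 0.0336) and PROCR, the endothelial protein C receptor, which has a class I-like fold, from 37.6 ± 0.49 to 28.4 ± 1.89 FPKM (limma adjusted p 0.0144). The call of ULBP2 was lost without shControl replicate 1, 2 or 3 or shBLACAT3 replicate 2 or 3 (adjusted p 0.0602 to 0.119), and that of PROCR without shControl replicate 1, 2 or 3 or shBLACAT3 replicate 1 (0.0516 to 0.0664). MICA, another NKG2D ligand, stood at 27.6 ± 0.70 and 27.7 ± 2.40 FPKM. Its relative MICB stood at 35 ± 1.12 and 26.1 ± 3.72 FPKM (SD, n = 3, limma adjusted p 0.0509) and was not called. RAET1L and MR1 of this list lay under the filter. The limma fit without a filter called RAET1L lower (adjusted p 0.00813) and did not call MR1 (adjusted p 0.0995).

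Turnover genes act in the degradation of class I chains, in signal peptide cleavage or in the glycosphingolipids that shield class I. None of the 10 tested was called (0 in limma), while 3 reached an unadjusted p below 0.05, as did 25.6% of all tested genes. Without shBLACAT3 replicate 1, under median scaling and with weaker filters 1 was called. The 2 with the smallest p were MARCHF9, a membrane ubiquitin ligase, with a log2 fold change of -0.65 (limma adjusted p 0.0547), and HM13, the signal peptide peptidase, with -0.26 (0.0828). In the class II list IFI30, a lysosomal thiol reductase, was the only gene tested of 13 and fell from 13.4 ± 1.19 to 5.77 ± 0.73 FPKM (SD, n = 3, log2 fold change -1.09, SE 0.11, limma adjusted p 0.00186). CTSS, of the same list, lay under the filter, at 0.646 ± 0.063 FPKM in shControl and 0.258 ± 0.053 FPKM in shBLACAT3 cells (SD, n = 3). The limma fit without a filter called CTSS lower (adjusted p 0.018). The class II chain genes had no values and could not be analysed.

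Position along the chromosome was compared because 7 of the 9 genes lie within the MHC of chromosome 6, while B2M is on chromosome 15 and ERAP1 on chromosome 5. Between HLA-F and TAPBP, in RefSeq gene order, 76 genes were tested and are reported, and 11 of them fell and 0 rose. These were 5 of the 7 class I and loading genes, PSMB8 and PSMB9, and 4 of the 65 genes outside the 9 and the pathway lists (6.15%, beside the background of 6.8%). The 4, named after their values were seen, were TRIM26, DDR1, SNHG32 and PPT2, with log2 fold changes of -0.43, -0.39, -0.41 and -0.53 (limma adjusted p 0.0145, 0.0492, 0.00505 and 0.00809). The call of TRIM26 was lost without shControl replicate 1 or 3 (0.0728 and 0.0662), and that of DDR1 without any 1 of the 6 libraries (0.0543 to 0.158). The call of DDR1 was also lost with a pseudocount of 0.1 (0.053), under median scaling (0.0512) and under quantile normalization (0.0992).

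TAP2, PSMB8, TAP1 and PSMB9 stand next to each other in this order among the genes tested. TAP1 and PSMB9 are transcribed away from each other, from starts 488 bases apart in GRCh38.p14. TAP1 fell by 1.20 and PSMB9 by 1.48 on the log2 scale, and TAP1 over PSMB9 was 1.81, 1.52 and 1.69 in shControl and 2.34, 2.48 and 2.56 in shBLACAT3 libraries. TAP2, at the other end of this group, had a log2 fold change of -0.26 and was not called.

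**Figure D4:**
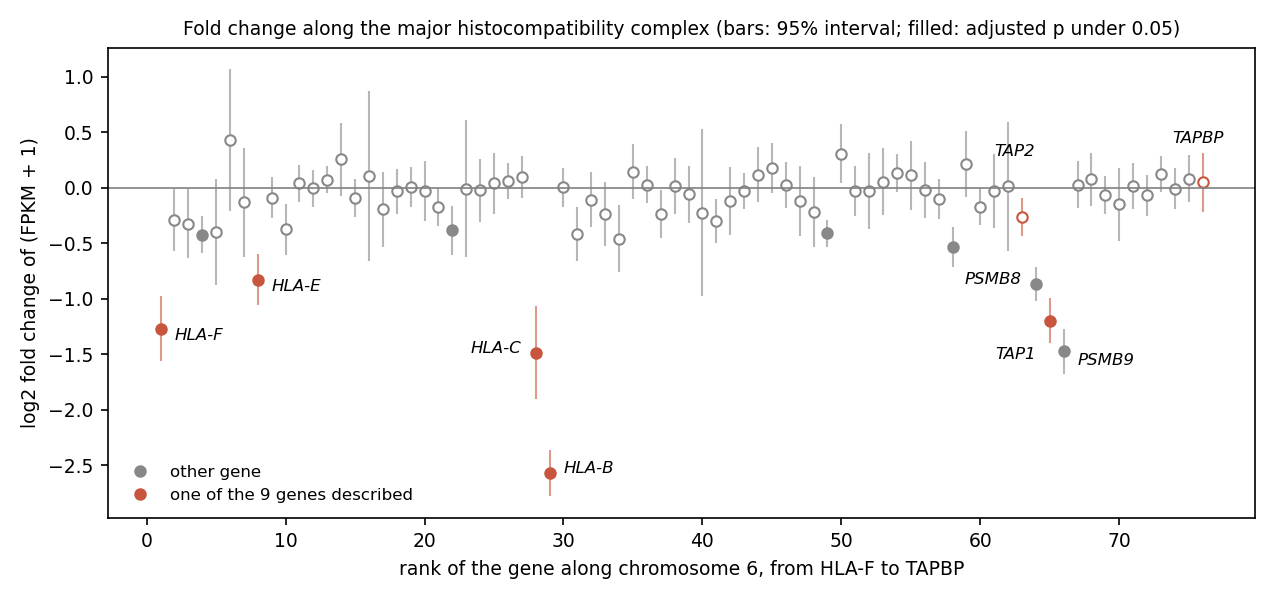
Log2 fold change of FPKM + 1 with its 95% interval for 76 tested genes of chromosome 6, by their rank from HLA-F to TAPBP, red for 7 of the 9 genes described and grey for other genes, with filled points for a limma adjusted p under 0.05. Filled points under -0.8 are the heavy chain genes HLA-B, HLA-C, HLA-E and HLA-F, and TAP1, PSMB8 and PSMB9.

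By the distance of their log2 profiles over the 6 libraries, each taken from its shControl mean, the tested genes most like HLA-B were CXCL10 (distance 0.23), MAL2 (0.42), HERC5 (0.48), SPOCK1 (0.58) and IFIH1 (0.65). CXCL10 is a chemokine, HERC5 the ligase that joins ISG15 to proteins, and IFIH1 an RNA sensor, all known as interferon-induced. MAL2 and SPOCK1 are not counted among such genes here. A distance of this kind mostly reflects a fall of similar size, and interferon induction as a shared trait was not tested. HERC5 stood at 62.0, 60.5 and 58.8 FPKM in shControl and at 8.36, 8.22 and 7.09 FPKM in shBLACAT3 libraries. IFIH1 stood at 32.1, 33.2 and 31.3 FPKM in shControl and at 5.63, 6.74 and 5.83 FPKM in shBLACAT3 libraries. CXCL10, MAL2 and SPOCK1 lay between 3.30 and 5.87 FPKM in shControl libraries and at or under 0.0613 FPKM, some listed at 0, in shBLACAT3 libraries, so their nearness to HLA-B depends on the pseudocount. With a pseudocount of 0.1 the log2 fold changes of CXCL10, MAL2 and SPOCK1 were -5.59, -5.13 and -5.12, against -2.66 for HLA-B. Those of HERC5 and IFIH1 were -2.93 and -2.39 in that setting.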

How the data were processed

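Libraries were prepared with a stranded kit from total RNA, per the labels' protocols. Tools named in the submitters' processing notes are HISAT2 2.1.0, StringTie and cutadapt, without their order. For build, annotation and strand setting, nothing is given in the sources used here. The deposited values were read as FPKM from the values and the tools, since the file header names no unit. In every row the higher group mean was at least 0.5. Columns headed NC were read as shControl and SH as shBLACAT3. Of 11081 rows, 11007 matched a symbol by Ensembl identifier, and rows of the 2 symbols on more than 1 row were summed.

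The 10008 genes whose mean reached 1 FPKM entered a limma fit (3.58.1, R 4.3.3) of log2(FPKM + 1) on group alone, with trend, two-sided, and p-values were adjusted over all of them by Benjamini-Hochberg. On simulated data with 10008 genes the test called 42%, 84%, 98% and 96% of genes lowered by 0.5, 1, 2 and 3 (log2), and 11 of 9808 unchanged genes. The lowered genes were drawn only from those with a mean log2(FPKM + 1) above 2. The rates thus do not cover lower levels, such as those of HLA-F and TAPBPL. Ratios and gene pairs were compared by exact permutation. The members and lists were chosen with earlier results of these data known. The named genes were all 9 members, and up to 6 called genes of each list or else the 2 with the smallest p. Set regulators, proteasome subunits and the 5 reported genes outside the members nearest to HLA-B were also named. Some genes that this rule or the lists took are not reported here. Alternatives were the replicate block, a pseudocount of 0.1, other filters, scalings and moderation, array weights and each library left out.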

Additional observations from a re-analysis of the deposited data

How the results depend on the processing

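The 5 falls among the class I and loading genes (HLA-B, HLA-C, HLA-E, HLA-F and TAP1) kept their direction and call in all 15 alternatives, and B2M, TAP2, TAPBP and ERAP1 were called in none. The count of all called genes, 938, was 612 with the replicate number as a block, and 387 to 1315 with 1 library left out. In the block fit 580 of the 938 genes were called, and the calls of PSMB10, TAPBPL, RFX5 and DDR1 were lost (adjusted p 0.0505, 0.0583, 0.0838 and 0.101). Same-numbered libraries had correlations of 0.1, 0.117 and 0.09 in their deviations from the group means, not all over 0.1, so the numbers were not taken to pair the libraries, although each library correlated best with its own number. The 11 calls in the other pathway lists were 4 to 11 with 1 library left out. Their count was 8 with the replicate block, 14 with array weights, and 16 with the filter at a mean of 0.1 or with no filter. With 1 library left out, the log2 fold change of TAPBP ranged from -0.066 to 0.14, of PSMB5 from -0.26 to 0.13, of PSMB6 from -0.025 to 0.11 and of PSMB7 from -0.0595 to 0.0246, and that of PSMB7 was 0.003 under quantile normalization. The cause was not tested. FPKM holds no counts, so counting error could not be given, and levels near 1 FPKM, such as those of HLA-F and NLRC5, depend on the pseudocount.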
